A study of Mus musculus with 10 samples.

Results

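The colony stimulating factor 1 receptor (CSF1R) passes its signal into the cell through adaptors, lipid kinases, a phospholipase and phosphatases, and 10 genes of this route were examined in microglia of mice given the CSF1R inhibitor GW2580. The genes were Pik3cg, Pik3cd and Pik3ap1 (phosphoinositide 3-kinase, PI3K), Akt1 (the AKT kinase), Grb2, Dok2 and Cbl (adaptors and a ubiquitin ligase), Inpp5d and Plcg2 (enzymes that act on membrane phosphoinositides) and Lyn (a Src-family kinase). They were taken as a list of symbols and matched to the gene identifiers of the count files through the RefSeq gene table of the mouse genome build GRCm38.p6. All 10 were found among the 46152 genes counted, and all 10 passed the filter on low counts (above 1 CPM, the count scaled to the size of the library, in at least 3 libraries), which 28419 genes passed.

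CSF1R is a receptor tyrosine kinase that is bound by CSF1 and by IL-34 and that microglia need for their survival. On ligand binding it phosphorylates itself, and the phosphotyrosines recruit Src-family kinases, the adaptor GRB2 on the way to RAS and ERK, and PI3K, which makes the lipid PIP3 that brings AKT to the membrane. The lipid phosphatase SHIP1, product of Inpp5d, removes PIP3, phospholipase C gamma 2, product of Plcg2, cleaves the PI3K substrate PIP2, and CBL attaches ubiquitin to the receptor so that it is taken up and degraded.

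The mice were adult C57BL/6J animals that were gavaged over 8 days, 5 with vehicle and 5 with GW2580 at a daily 80 mg/kg, and each group had 2 male and 3 female mice. Myeloid cells were taken from the brain over a Percoll gradient and by magnetic selection for CD11b, which microglia share with other macrophages, monocytes and granulocytes. Each mouse gave 1 RNA-sequencing library, and libraries are called by group and number (Vehicle 1, GW2580 1). GW2580 acts on the kinase of CSF1R, so the transcripts counted here are those of the receptor's partners and not a readout of their activity.

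The libraries held between 12550418 and 26079343 fragments assigned to genes. The microglial genes Tmem119 and P2ry12 were abundant in every library, at no less than 2704 and 1478 CPM. In the first principal component of 7580 genes (47.1% of the variance), Vehicle 5 (-77.9) lay with GW2580 1, 3 and 4 (-46.4 to -37.8), and GW2580 5 (45.8) lay with Vehicle 1 to 4 (35.0 to 40.5). Vehicle 5 had the lowest summed CPM of 12 microglial markers, Csf1r among them (18397, against 28837 to 36900 in the other vehicle libraries). It had the highest of the lymphocyte markers (792, against 114 to 310 in all other libraries) and of the ependymal and choroid plexus markers (26801, against 164 to 3528). GW2580 3 had the highest microglial sum, 75616 CPM, and the lowest TMM scaling factor, 0.691. Vehicle 1 had the highest monocyte and granulocyte sum, 28131 CPM against 684 to 12937 elsewhere, and Vehicle 2 the highest oligodendrocyte sum, 15079 CPM. Of the 28419 genes tested, 3046 (10.7%) passed a fold change over 2 with an unadjusted p under 0.05 in edgeR's quasi-likelihood test, 1141 higher and 1905 lower with GW2580 (2123 and 875 when scaled by library size alone). At an unadjusted p under 0.05 alone there were 4186 genes, and 0 genes had an adjusted p under 0.05 (the smallest was 0.280), where DESeq2 gave 177 and edgeR's likelihood ratio test 53. In bulk RNA of this kind, fewer cells of a type and less RNA per cell cannot be told apart.

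The transducers were expressed over a wide range of levels in the vehicle-treated mice. Per kilobase of exon, the mean level of the highest gene was 96.8 times that of the lowest. Lyn was the most abundant with 85.8 ± 16.97 CPM per kilobase (mean ± SD, n = 5, as for the levels that follow), followed by Inpp5d with 62.8 ± 20.8, Akt1 with 58.0 ± 43.2 and Grb2 with 50.1 ± 1.64. These 4 genes lay above the 95th percentile of all genes tested, for which the median was 2.07 CPM per kilobase. The middle of the order held Pik3ap1 with 26.4 ± 15.5, Plcg2 with 18.8 ± 4.77 and Pik3cg with 7.001 ± 4.58 CPM per kilobase. Dok2, with 2.93 ± 1.35, and Cbl, with 2.50 ± 0.70, were near the median gene, and Pik3cd was the lowest with 0.886 ± 0.297.

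Not every step of that order was larger than the spread between mice. Akt1 lay above Grb2 in 1 of 5 vehicle libraries, since the mean of Akt1 rested on Vehicle 5, and Dok2 lay above Cbl in 3 of 5. Lyn was above Inpp5d, Inpp5d above Akt1 and Grb2 above Pik3ap1 in 4 of 5 libraries each, while the lower steps from Pik3ap1 to Plcg2, to Pik3cg and to Dok2 held in 5 of 5, as did that from Cbl to Pik3cd. With GW2580 the order of the means was the same except that Cbl (3.64 ± 1.24) stood above Dok2 (2.62 ± 0.95).

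The level of Pik3cd may be incomplete, which was not tested. The annotation used for counting placed it on chromosome 4 and on 2 other sequences of the assembly, so that its deposited length was 11915 bases, of which 6174 lie on the chromosome. Per kilobase of the chromosomal exons its vehicle mean was 1.71 CPM, still the lowest of the 10. Among protein-coding genes annotated on more than 1 sequence, 25.8% of 1118 had no count in any library, against 1.79% of 20751 annotated on 1 sequence, and of the signalling genes considered here Pik3r2, a regulatory subunit of PI3K, was among those at 0. The other 9 transducers are annotated on 1 sequence each.

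**Figure D1:**
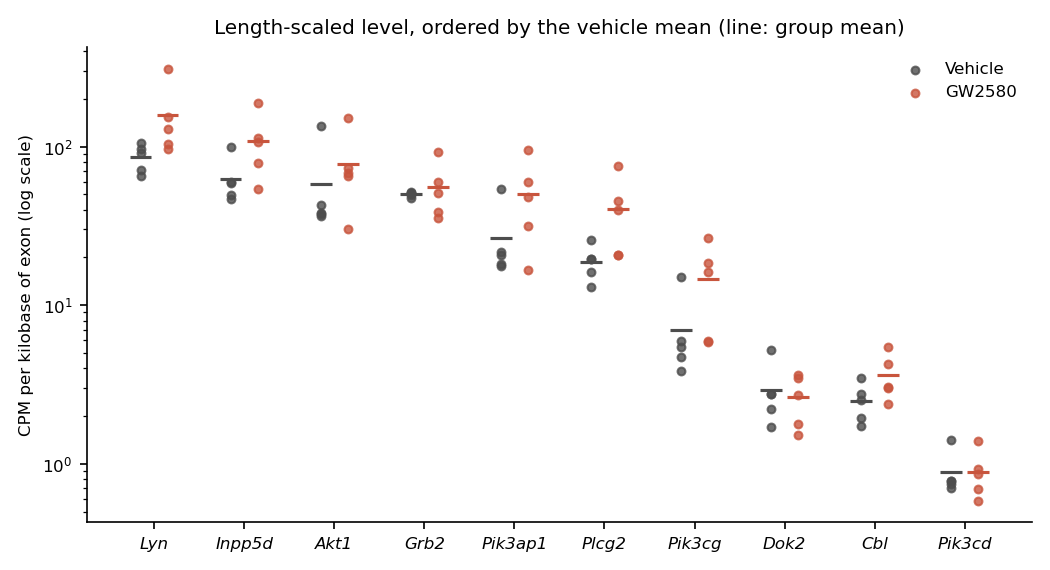
Level of each gene per kilobase of exon (CPM per kilobase, log axis) in the 5 vehicle and the 5 GW2580 libraries, ordered by the vehicle mean. Points are libraries and lines group means. Lyn leads with a vehicle mean of 85.8 and Pik3cd is last with 0.886, and the single high vehicle points of Akt1, Pik3ap1 and Pik3cg are Vehicle 5.

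The sequence at the start of the genes was read for 8 of the 10 (RefSeq, GRCm38.p6, 250 bases before to 50 after each transcript start, 13 windows, since some genes have more than 1 start). PU.1 is the ETS-family transcription factor of macrophages and microglia, and its core motif, GAGGAA or TTCCTC on the other strand, was searched in both orientations. The motif was present in 6 of the 13 windows, those of 5 genes (Inpp5d, Pik3cg, Pik3ap1, Cbl and Grb2), and in 28.3% of all 32851 windows in the table. The windows of Pik3cg overlap and hold the same matches, so they are not separate, and 1 of them is shown. The windows of 4 genes are shown, Plcg2 as the transducer with the largest fold change with GW2580, and Inpp5d, Pik3cg and Pik3ap1 as the genes of PI3K and its lipid product that hold the motif. They are written 5′ to 3′ on the strand of the gene, with the motif in capitals.
Inpp5d, chr1:87620062-87620361, plus strand: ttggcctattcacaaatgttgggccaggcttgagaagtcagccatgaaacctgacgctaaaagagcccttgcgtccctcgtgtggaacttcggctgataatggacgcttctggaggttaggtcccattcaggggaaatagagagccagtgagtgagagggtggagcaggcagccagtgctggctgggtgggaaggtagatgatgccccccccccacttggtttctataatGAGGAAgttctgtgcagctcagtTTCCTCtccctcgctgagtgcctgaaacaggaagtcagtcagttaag
Pik3cg, chr12:32208610-32208909, minus strand: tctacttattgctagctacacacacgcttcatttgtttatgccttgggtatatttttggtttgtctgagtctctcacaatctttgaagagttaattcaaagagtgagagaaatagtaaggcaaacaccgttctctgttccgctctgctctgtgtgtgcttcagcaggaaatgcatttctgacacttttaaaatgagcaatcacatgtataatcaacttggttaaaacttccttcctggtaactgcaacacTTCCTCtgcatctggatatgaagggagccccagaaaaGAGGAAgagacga
Pik3ap1, chr19:41385053-41385352, minus strand: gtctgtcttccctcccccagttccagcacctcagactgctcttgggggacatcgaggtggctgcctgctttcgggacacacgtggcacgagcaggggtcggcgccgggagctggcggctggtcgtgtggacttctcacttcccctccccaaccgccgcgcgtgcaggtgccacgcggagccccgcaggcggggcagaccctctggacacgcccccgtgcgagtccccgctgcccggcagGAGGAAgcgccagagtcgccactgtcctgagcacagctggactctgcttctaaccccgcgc
Plcg2, chr8:117498025-117498324, plus strand: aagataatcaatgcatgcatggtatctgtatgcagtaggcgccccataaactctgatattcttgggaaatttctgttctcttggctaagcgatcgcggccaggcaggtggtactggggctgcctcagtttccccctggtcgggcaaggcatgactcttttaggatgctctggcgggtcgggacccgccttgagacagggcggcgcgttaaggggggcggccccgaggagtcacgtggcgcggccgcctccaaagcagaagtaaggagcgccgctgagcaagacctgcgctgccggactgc
The Inpp5d and Pik3cg windows hold 2 matches each, 1 in either orientation, the Pik3ap1 window holds 1, and the Plcg2 window holds none. Pik3cg and Inpp5d have few CpG pairs in these 300 bases, 4 and 6 (the median of all windows was 7), whereas Pik3ap1 has 26 and Plcg2 21, and the Plcg2 window holds the GC box GGGCGG, which is found in 35.7% of all windows.

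The question put to the treatment groups was whether the genes that carry the CSF1R signal changed in transcript level when the receptor was inhibited. The clearest difference was in Plcg2, which was 2.15-fold higher with GW2580. Lyn was 1.85-fold higher. The values for 9 of the 10 genes were above 0 on the log2 scale, the exception being Dok2, whereas 48.4% of all genes tested were above 0. Plcg2 alone passed the 2-fold threshold with an unadjusted p under 0.05, 1 of 10 transducers where 4.01% of all genes were called higher. Plcg2 and Lyn had an unadjusted p under 0.05, 2 of 10 and both higher, against 14.7% of all genes in either direction and 6.61% as higher values. No transducer had an adjusted p under 0.05, and 0 of 10 had groups that did not overlap (3.03% of all genes). The median log2 fold change of the 10 was 0.66, beside -0.03 for all genes tested. When libraries were scaled by their totals alone, the median of all genes moved to 0.23 and that of the transducers to 0.88.

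**Figure D2:**
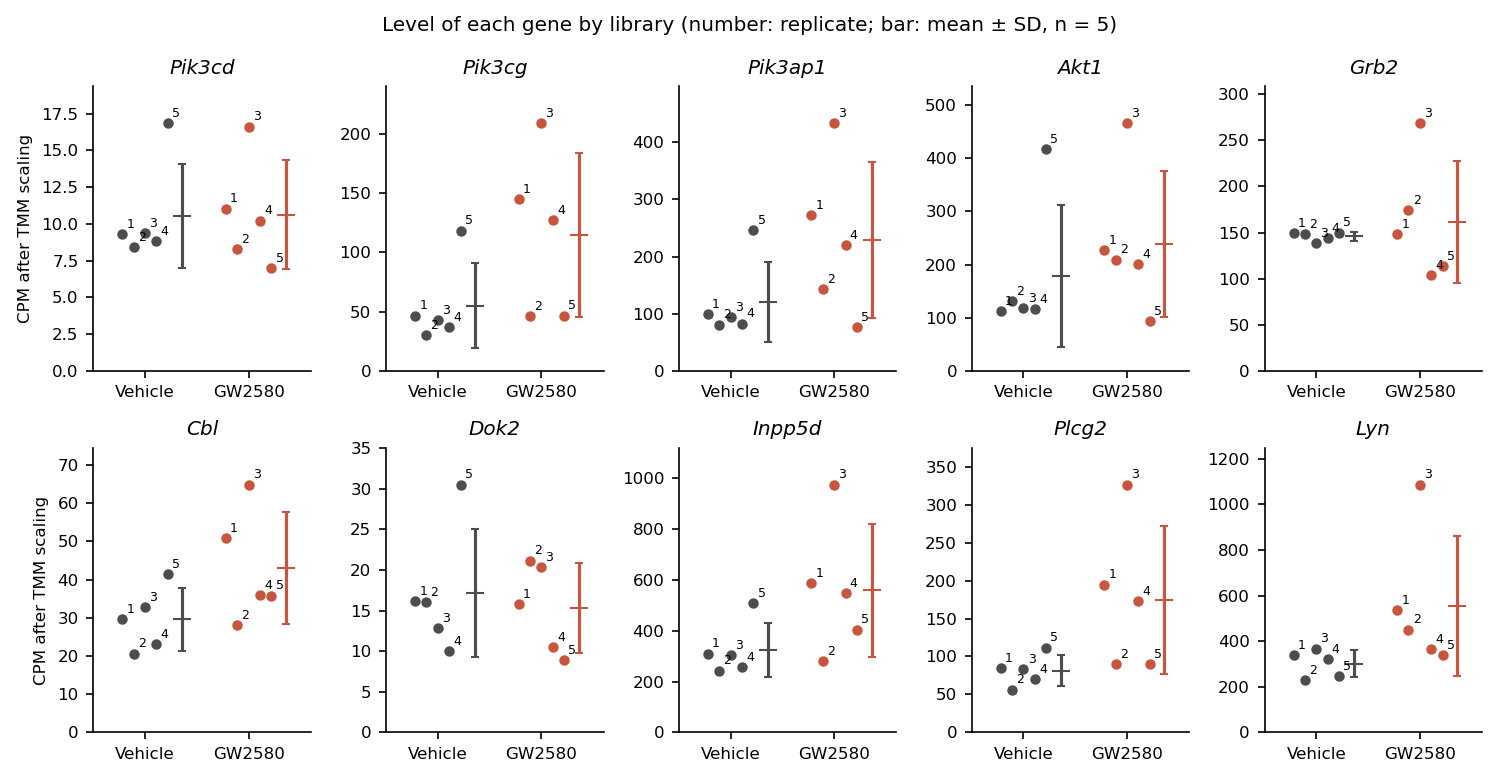
CPM after TMM scaling (vertical axis, linear, from 0) of each of the 10 genes in every library, numbered by replicate, with the mean and SD of each group of 5. Vehicle 5 is the highest vehicle library for 9 genes, and GW2580 3 the highest of all 10 libraries for 8 under this scaling.

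Of the 2 catalytic subunits of PI3K, neither passed the test, and the difference between them was not tested. Pik3cg (NCBI gene 30955, chr12:32173397-32208677, minus strand, 13 exons after merging its transcripts) encodes p110 gamma, the PI3K subunit of blood cells that G protein subunits activate. Its level was 46.6, 30.3, 42.5, 36.8 and 118 CPM in Vehicle 1 to 5 and 145, 46.1, 209, 127 and 46.6 CPM in GW2580 1 to 5. GW2580 1, 3 and 4 lay above all vehicle libraries, while GW2580 2 and 5 were level with Vehicle 1, and Vehicle 5 stood far above its group. The group means were 54.9 ± 35.9 and 115 ± 69.4 CPM (SD, n = 5), a log2 fold change of 1.06 (SE 0.50), which did not pass edgeR's quasi-likelihood test (p = 0.0516, adjusted p = 0.341) or the two-sided exact permutation test (p = 0.0635).

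Pik3cd (NCBI gene 18707, chr4:149649168-149702566, minus strand) encodes p110 delta, the leukocyte subunit that is recruited by receptor tyrosine kinases through its regulatory partner. It measured 9.31, 8.40, 9.36, 8.84 and 16.9 CPM in Vehicle 1 to 5 and 11.04, 8.30, 16.6, 10.2 and 6.97 CPM in GW2580 1 to 5. The groups overlapped, with Vehicle 5 and GW2580 3 about equally high and GW2580 2 and 5 below all vehicle libraries. The fitted log2 fold change was 0.01 (SE 0.32, edgeR p = 0.974, exact permutation p = 1), and it rests on 103 to 300 counts per library.

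Pik3ap1 (NCBI gene 83490, chr19:41272541-41385102, minus strand, 18 exons) encodes BCAP, an adaptor that binds the regulatory subunit of PI3K and links it to B-cell and Toll-like receptors. Its level was 99.1, 80.8, 94.1, 82.6 and 246 CPM in Vehicle 1 to 5 and 272, 143, 433, 220 and 76.0 CPM in GW2580 1 to 5. Of the 5 treated libraries 4 exceeded Vehicle 1 to 4, GW2580 5 lay below every vehicle library, and Vehicle 5 reached the treated range. The log2 fold change was 0.93 (SE 0.48, edgeR p = 0.0739, adjusted p = 0.377, exact permutation p = 0.143). An opposite-strand lncRNA, Gm52406, shares 71 of the exon bases of Pik3ap1 and had at most 16 counts in a library, and since fragments were counted without regard to strand the reads of the pair cannot be told apart there.

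Akt1 (NCBI gene 11651, chr12:112653821-112674884, minus strand, 16 exons) encodes the serine/threonine kinase that reads out PIP3. It stood at 112, 131, 118 and 116 CPM in Vehicle 1 to 4 and at 417 CPM in Vehicle 5, and at 227, 209, 466, 201 and 93.8 CPM in GW2580 1 to 5. Of the treated libraries 4 were thus above Vehicle 1 to 4, and 1 of 5 was above Vehicle 5. The log2 fold change of 0.42 (SE 0.49) did not pass the test (edgeR p = 0.407, exact permutation p = 0.429). Without Vehicle 5 it was 1.00 (SE 0.41, edgeR adjusted p = 0.185), and without GW2580 3 it was 0.03, so that these 2 libraries set its value.

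Among the adaptors, Grb2 (NCBI gene 14784, chr11:115644045-115708597, minus strand, 7 exons) couples phosphorylated receptors to the RAS activator SOS. It was the most even of the transducers in vehicle-treated mice, with 149, 149, 139, 144 and 150 CPM. The treated libraries spread to both sides of that range, with 148, 174, 269, 104 and 113 CPM, 2 above and 2 below all vehicle libraries. Between the groups the log2 fold change was 0.15 (SE 0.32, edgeR p = 0.660, exact permutation p = 0.905), and -0.11 without GW2580 3.

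Dok2 (NCBI gene 13449, chr14:70765889-70778494, plus strand, 6 exons) encodes an adaptor of myeloid cells that dampens RAS signalling. It measured 16.2, 16.03, 12.9, 10.05 and 30.5 CPM with vehicle and 15.8, 21.2, 20.3, 10.5 and 8.94 CPM with GW2580. No treated library was above all vehicle libraries and 1 was below them. Its log2 fold change was -0.16 (SE 0.36, edgeR p = 0.665, exact permutation p = 0.722), and 0.15 without Vehicle 5.

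Cbl (NCBI gene 12402, chr9:44142976-44234259, minus strand, 17 exons) encodes the E3 ubiquitin ligase that marks activated CSF1R for uptake. Its level was 29.7, 20.6, 32.7, 23.2 and 41.5 CPM with vehicle and 50.8, 28.1, 64.8, 36.03 and 35.8 CPM with GW2580. Of the 5 treated libraries 2 exceeded Vehicle 5 and 4 exceeded the other vehicle libraries. The log2 fold change was 0.54 (SE 0.32, edgeR p = 0.110, adjusted p = 0.430, exact permutation p = 0.0952).

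Of the 2 enzymes that act on phosphoinositides, Plcg2 was called and Inpp5d did not pass the test. Plcg2 (NCBI gene 234779, chr8:117498275-117635142, plus strand, 33 exons) encodes the phospholipase C of B cells and myeloid cells that yields diacylglycerol and inositol trisphosphate. Its level was 84.7, 56.3, 83.8, 69.8 and 112 CPM in Vehicle 1 to 5 and 195, 89.8, 326, 173 and 89.8 CPM in GW2580 1 to 5. All 5 treated libraries were above Vehicle 1 to 4, and 3 of them were also above Vehicle 5. The group means were 81.3 ± 20.6 and 175 ± 97.2 CPM (SD, n = 5), a log2 fold change of 1.10 (SE 0.40, edgeR p = 0.0149, adjusted p = 0.280, exact permutation p = 0.0397). Of 26 other settings of the fit, 25 gave an unadjusted p under 0.05 for Plcg2, but its log2 fold change was below 1 without GW2580 3 (0.75), without Vehicle 2 (0.99), with the replicate number as a block (0.97) and in limma-voom (0.96), and its p was over the threshold in female mice alone, so that the call was lost in 5 of the 26.

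Inpp5d (NCBI gene 16331, chr1:87620312-87720510, plus strand, 28 exons) encodes SHIP1, which turns PIP3 into a lipid with a different phosphate pattern and so opposes PI3K. It measured 310, 243, 305, 256 and 510 CPM with vehicle and 589, 280, 975, 549 and 404 CPM with GW2580. GW2580 1, 3 and 4 were above every vehicle library, and GW2580 2 lay within the range of Vehicle 1 to 4. This gave a log2 fold change of 0.78 (SE 0.40, edgeR p = 0.0680, adjusted p = 0.368, exact permutation p = 0.0873). It shares 6 exon bases with the opposite-strand lncRNA Gm33470.

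Lyn (NCBI gene 17096, chr4:3678068-3791612, plus strand, 13 exons) encodes a Src-family kinase that phosphorylates both activating and inhibitory partners of myeloid receptors. Its level was 339, 229, 367, 321 and 248 CPM in Vehicle 1 to 5 and 536, 451, 1086, 365 and 341 CPM in GW2580 1 to 5. The first 3 treated libraries were above every vehicle library, GW2580 4 and 5 fell within the vehicle range, and Vehicle 5 was not high for this gene. The group means were 301 ± 59.6 and 556 ± 306 CPM (SD, n = 5), a log2 fold change of 0.89 (SE 0.39, edgeR p = 0.0391, adjusted p = 0.318, exact permutation p = 0.0317). Of the 26 other settings, 12 gave an unadjusted p under 0.05 for Lyn. For genes that did not pass with all libraries the number was 13 for Pik3cg, 9 for Pik3ap1, 8 for Inpp5d, 5 for Cbl and 4 for Akt1. It was 0 for Pik3cd, Grb2 and Dok2. Without GW2580 3 the log2 fold change of Lyn was 0.49 (edgeR adjusted p = 0.493). The opposite-strand lncRNA Gm42250 shares 41 exon bases and had at most 114 counts in a library, where Lyn had at least 3274.

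**Figure D3:**
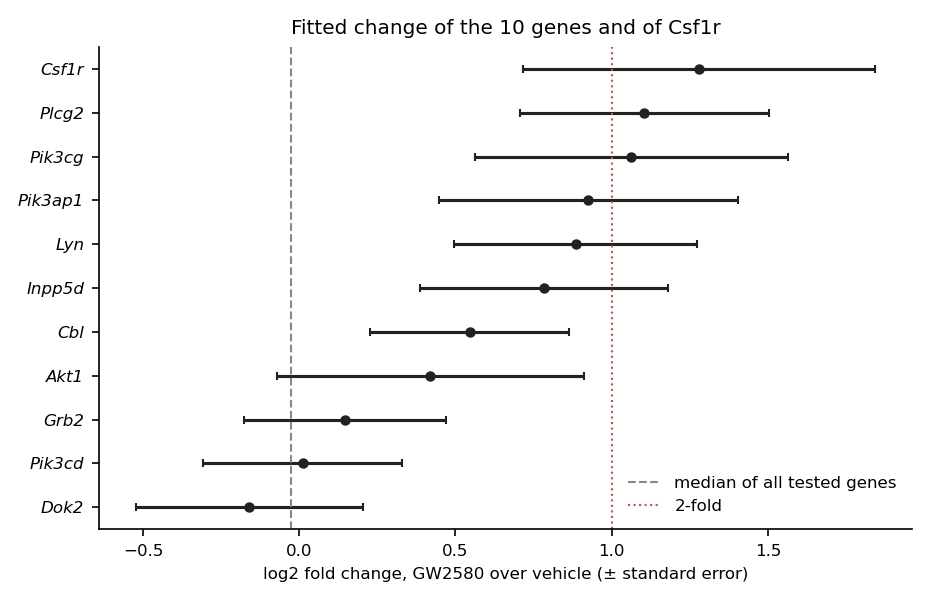
Log2 fold change of GW2580 over vehicle (horizontal axis, point) with its standard error (bar) for the 10 genes and for Csf1r from edgeR's quasi-likelihood fit of 5 against 5 libraries. Plcg2 (1.10) and Pik3cg (1.06) lie beyond the 2-fold line, Dok2 (-0.16) is the only gene below 0, and the dashed line is the median of all genes tested (-0.03).

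The levels of the transducers were also set beside that of the receptor. Csf1r itself stood at 2486, 1805, 2634, 2156 and 5324 CPM in Vehicle 1 to 5 and at 7879, 3836, 14653, 6493 and 2108 CPM in GW2580 1 to 5. The treated libraries other than GW2580 5 were above Vehicle 1 to 4, and Vehicle 5 was above GW2580 2 and 5. The log2 fold change of Csf1r was 1.28 (SE 0.56, edgeR p = 0.0394, adjusted p = 0.318, exact permutation p = 0.0873). As a description, the log2 ratio of each gene to Csf1r varied least for Pik3ap1 (SD 0.19 over 10 libraries), Pik3cg (0.27) and Plcg2 (0.32), and most for Grb2 (0.87) and Dok2 (0.91). For Pik3ap1 this log2 ratio ran from -5.08 to -4.43 and for Plcg2 from -5.57 to -4.55. For every transducer its mean was lower with GW2580 than with vehicle. That follows from the levels above and is no separate result. The group difference in mean log2 CPM was larger for Csf1r (1.10) than for any transducer (highest for Pik3cg, 0.99). The step was smallest for Pik3cg, from -5.79 to -5.89, and largest for Dok2, from -7.38 to -8.61. No other genes were set beside Csf1r in this way.

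The levels of the genes were correlated from mouse to mouse. All genes of a library share its depth, scaling and cell composition, and over the 10 libraries the median of the 45 pairwise correlations of log2 CPM was 0.70, and it was again 0.70 with the group means removed. The r was over 0.9 for 10 pairs, led by Pik3cg with Pik3ap1 and Pik3cg with Inpp5d (both 0.96), and 0 pairs were negative. Dok2 had the weakest ties, with a median r of 0.36 to the others, and Grb2 the next with 0.51. After TMM scaling, the average of the 10 genes around their own means was highest in GW2580 3 (1.18 on the log2 scale, 10 of 10 genes above their mean), followed by GW2580 1 (0.49, 9 genes) and Vehicle 5 (0.45, 9 genes). It was lowest in Vehicle 2 (-0.59, 1 gene), Vehicle 4 (-0.53, 0 genes) and GW2580 5 (-0.45, 2 genes).

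**Figure D4:**
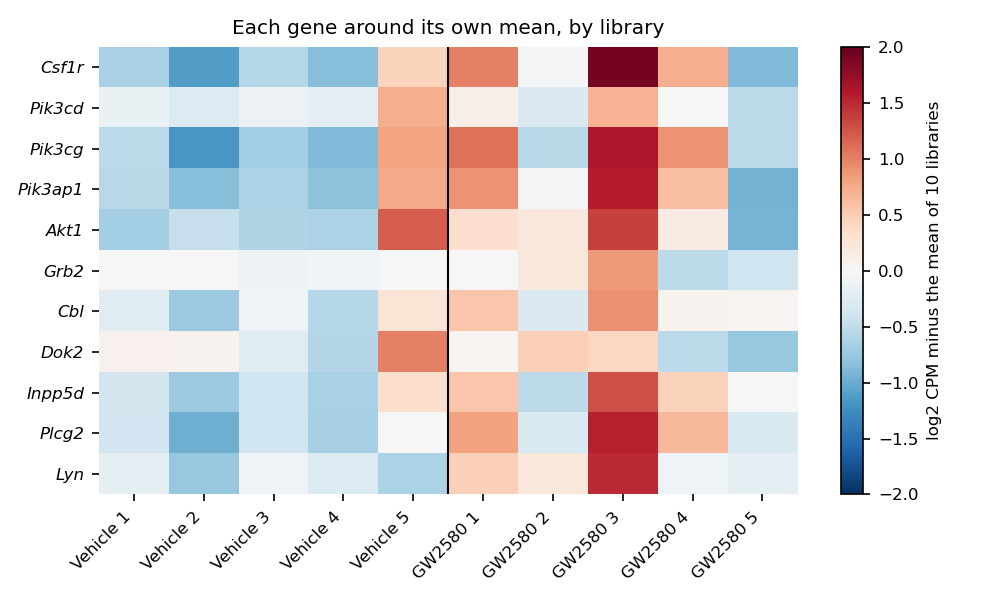
Log2 CPM minus the mean of the 10 libraries (colour, from -2 in blue to 2 in red) for Csf1r and the 10 genes in each library. GW2580 3 is above the mean for all 10 genes and Vehicle 5 for 9, while Vehicle 1 to 4 and GW2580 5 are above it for at most 2.

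Other genes had still closer profiles. By the root mean square distance of centred log2 CPM over the 10 libraries, among 7580 genes above 20 CPM, the gene closest to Plcg2 was Tlr7, an endosomal receptor for RNA (distance 0.13), and that closest to Pik3cg was Nckap1l, the blood-cell subunit of the WAVE actin regulator (0.13). Rasgrp3, an activator of RAS-like proteins that responds to diacylglycerol, was closest to Lyn (0.12), Cttnbp2nl to Inpp5d (0.15), Lhfpl2 to Pik3ap1 (0.10) and the formin gene Diaph2 to Cbl (0.11). Akt1 was closest to Lrrc41 (0.076), Grb2 to the splicing factor gene Rbm5 (0.082), Pik3cd to Gpatch2l (0.090) and Dok2 to Klhdc4 (0.15). None of the 10 transducers was the closest gene of another, and between 21 genes (for Plcg2) and 1702 genes (for Grb2) lay nearer than the nearest transducer.

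The libraries that stood apart touched these results. Vehicle 5 was the highest vehicle library for 9 of the 10 genes, all but Lyn. In the same library the lymphocyte genes Cd79a and Cd3e were at 129 and 43.1 CPM, against at most 29.0 and 3.20 CPM in any other library, while the B-cell gene Cd79b was lower there (60.9 CPM) than in Vehicle 1 to 4 (63.4 to 86.0 CPM). Most B cells lack CD11b, on which the cells were selected. B cells are also known to express Pik3cd, Pik3ap1, Inpp5d, Plcg2 and Lyn, of which Lyn was not high in Vehicle 5, and the part of lymphocytes in the levels of Vehicle 5 was not tested. After TMM scaling, GW2580 3 was the highest of all libraries for 8 of the 10 genes. It also had the highest microglial markers (Tmem119 at 12428 CPM, against 2704 to 5834 in the others), whose part was not tested either. The rank for most of the 8 genes depends on the scaling factor, 0.691 in GW2580 3, 1.23 in GW2580 1 and 1.61 in GW2580 4. Pik3cg had 3758 counts among 26079343 assigned fragments in GW2580 3 and 2682 among 13228819 in GW2580 4, a larger share. The share was also larger in GW2580 4 for Pik3ap1 (7801 and 4654 counts), Inpp5d (17553 and 11593), Plcg2 (5873 and 3652) and Cbl (1167 and 761). For Akt1 it was larger in Vehicle 5 (7426 counts among 20854218) than in GW2580 3 (8385 counts). Of the 8 genes, Grb2 (4833 and 2192 counts) and Lyn (19554 and 7718 counts) alone had their largest share in GW2580 3. Over 12 microglial markers the summed level was 18397 to 36900 CPM with vehicle and 24487 to 75616 CPM with GW2580. Of the 11 that passed the filter 2 had an unadjusted p under 0.05, both higher, as had 6.61% of all genes. Csf1r is on this list and was among the 2. It made up 14653 CPM of the sum in GW2580 3 and 5324 CPM of the sum in Vehicle 5. The marker that did not pass was Trem2, which is annotated on 2 sequences and had 2 counts in all libraries together. Of 12 lymphocyte markers 4, and of 6 ependymal and choroid plexus markers 5, had an unadjusted p under 0.05, all of them lower with GW2580, as had 8.12% of all genes. Also lower at that threshold were 3 of 6 oligodendrocyte, 2 of 8 neuron, 1 of 7 astrocyte and 1 of 12 monocyte and granulocyte markers. Of 6 border macrophage markers 1 was higher. The summed oligodendrocyte markers had a median of 226 CPM with vehicle and 409 CPM with GW2580, and Vehicle 2 (15079 CPM) and Vehicle 5 (3287 CPM) stood far above. For the neuron markers the medians were 68.3 and 66.4 CPM.

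Vehicle 5 and GW2580 5 lay on the side of most of the other group in the first principal component, but Vehicle 5 did not in the second. Without both, the log2 fold changes of 9 of the 10 transducers were higher and that of Lyn was lower (0.85, against 0.89 with all libraries). These libraries were picked by their expression, so the fit without them describes the other 8 libraries and is no independent test. Pik3cg was then 3.14-fold higher (edgeR adjusted p = 0.0140), Pik3ap1 2.79-fold (adjusted p = 0.0156), Plcg2 2.47-fold (adjusted p = 0.0277) and Akt1 2.15-fold (adjusted p = 0.0391). In the other 25 alternatives the lowest adjusted p was 0.163 for Pik3cg, 0.162 for Pik3ap1, 0.108 for Plcg2 and 0.185 for Akt1, and the highest was 1.00 for each, in female mice alone. These 4 of 10 genes were called, where 22.3% of all genes were called in either direction and 7.08% as higher, and 17.8% of all genes then had an adjusted p under 0.05. At an unadjusted p under 0.05 Cbl and Inpp5d joined them, 6 of 10 against 34.7% of all genes in either direction and 15.3% as higher. Cbl was 1.58-fold higher (edgeR adjusted p = 0.126), Inpp5d 2.00-fold (adjusted p = 0.0915) and Lyn 1.81-fold (adjusted p = 0.148). Without GW2580 3 alone, every one of the 10 log2 fold changes was lower than with all libraries, and 0 of the 10 were called (3.54% of all genes were called higher). In that fit 1 transducer, Plcg2, had an unadjusted p under 0.05 in edgeR, against 5.41% of all genes as higher values.

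**Figure D5:**
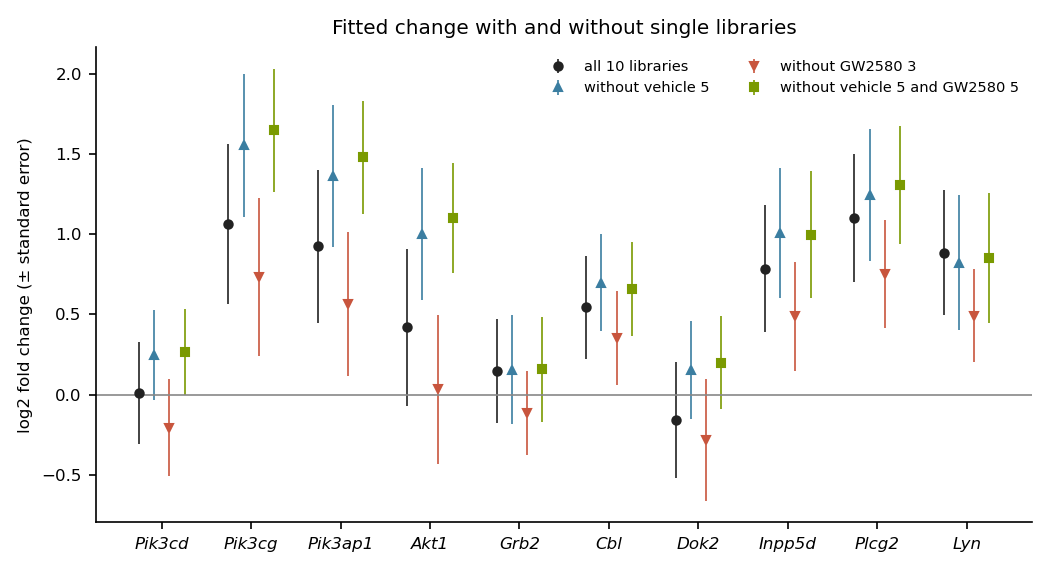
Log2 fold change (vertical axis) with its standard error for each gene from edgeR fits of all 10 libraries, without Vehicle 5, without GW2580 3, and without both Vehicle 5 and GW2580 5. Akt1 moves from 0.42 with all libraries to 1.10 without Vehicle 5 and GW2580 5, while Plcg2 stays between 0.75 and 1.31.

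Sequence outside exons and sex were followed too. Fragments that aligned once but hit no annotated exon made up 47.7 to 59.8% with vehicle and 47.1 to 70.8% with GW2580 of those aligned once. With that share as a covariate, 3 transducers were called and 7 had an unadjusted p under 0.05 in edgeR, all higher, against 3.23% and 7.58% of all genes as higher values. The log2 fold changes of Plcg2, Pik3cg and Lyn were 1.26, 1.37 and 0.99 (adjusted p = 0.440 for each). Sex was balanced between the groups. The difference of the treatment effect between male and female mice had an unadjusted p under 0.05 for 0 of the 10 genes in edgeR's interaction test, against 2.52% of all genes, and its largest values were those of Dok2 (0.62 on the log2 scale, male minus female) and Akt1 (0.62), with an adjusted p of 1.00 for both.

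Other genes of the same routes, a list of 100 in 11 roles, were set beside the transducers. The filter passed 98, all but Pik3r2 and Vav3, which are annotated on 2 sequences each, and the median log2 fold change of the 98 was 0.20. With GW2580, 67 were above 0 and 31 below (68.4% above), and 2 were called (2.04%, against 10.7% of all genes), both lower (6.7% of all genes). Scaled by library size alone, 4 were called higher and 1 lower. At an unadjusted p under 0.05 alone there were 3 higher and the same 2 lower genes, where the shares of all genes were 6.61% and 8.12%. With library size alone these were 26 higher and 2 lower genes, and with upper quartile factors 16 and 2. With TMM scaling the 3 higher genes were Stat3, Shc1 and Inpp4b. Stat3, a transcription factor that cytokine receptors activate, had a log2 fold change of 0.95 (SE 0.40, exact permutation p = 0.0714). Shc1, an adaptor that works with GRB2, had 0.85 (SE 0.39, exact permutation p = 0.135). Inpp4b, a phosphatase of the SHIP1 product, had 0.70 (SE 0.31, exact permutation p = 0.0317). Inpp4a, which encodes an enzyme of the same activity, lay in the other direction, at 28.0 ± 2.35 CPM with vehicle and 19.7 ± 3.12 CPM after treatment (SD, n = 5), with all 5 treated libraries below every vehicle library (log2 fold change -0.51, SE 0.25, edgeR p = 0.0629, adjusted p = 0.359, exact permutation p = 0.00794, the smallest this test can give). It was the only one of the 98 with groups that did not overlap, where 3.03% of all genes had such groups.

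The called genes were Ptpn11 and Hras, which stand at the branch from receptors to RAS. Ptpn11 encodes the phosphatase SHP2, which promotes RAS activation. It went from 84.9 ± 56.0 CPM with vehicle to 32.4 ± 9.73 CPM with GW2580 (SD, n = 5), a log2 fold change of -1.39 (SE 0.43, edgeR p = 0.00562, adjusted p = 0.280, exact permutation p = 0.0159), with 4 of 5 treated libraries below all vehicle libraries. Hras, one of the RAS genes, went from 65.8 ± 33.4 to 29.7 ± 14.1 CPM (log2 fold change -1.15, SE 0.42, edgeR p = 0.0157, adjusted p = 0.280, exact permutation p = 0.0397), with 3 of 5 below. Both values were smaller without Vehicle 2 and 5, the libraries with the most oligodendrocyte and astrocyte marker RNA, at -0.61 for Ptpn11 (edgeR adjusted p = 0.388) and -0.62 for Hras (adjusted p = 0.441). They were -0.94 and -0.82 without Vehicle 2 alone, and -1.32 and -1.10 without Vehicle 5 alone. These libraries were picked by their expression. With the glial and neuronal marker mean as a covariate, the values were -0.91 for Ptpn11 (edgeR adjusted p = 0.431) and -0.84 for Hras (adjusted p = 0.460). Neither gene was called in that fit. Beyond this fit the part of glial RNA was not tested.

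In each role the most abundant gene per kilobase gave no call. In the PI3K group this was Pik3r5, the regulatory partner of p110 gamma, which had a log2 fold change of 0.69 (SE 0.42, exact permutation p = 0.214) and so lay in the direction of Pik3cg. Prkcd, a protein kinase C that diacylglycerol activates, had a value of 0.79 (SE 0.42, exact permutation p = 0.135). Ptpn6, the inhibitory phosphatase SHP1, had 0.50 (SE 0.39, exact permutation p = 0.349), the phosphoinositide phosphatase gene Inpp5k 0.50 (SE 0.35, p = 0.317), the adaptor gene Grap 0.27 (SE 0.40, p = 0.659) and Sh3kbp1, a CBL partner, 0.29 (SE 0.37, p = 0.484). Rheb, the activator of mTOR (-0.59, SE 0.37, exact permutation p = 0.0794), Rac1, a regulator of actin (-0.13, SE 0.38, p = 0.540), and Map2k2, an ERK kinase (-0.12, SE 0.40, p = 0.563), were below 0. Stat3 was the most abundant of its role. By role, the medians ran from -0.02 for the RAC and VAV genes to 0.44 for the protein tyrosine phosphatases, and each was below the 0.66 of the transducers.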

How the data were processed

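Microglia-enriched CD11b+ brain cells of 10 mice were sequenced, 1 library per mouse, and groups, sex and replicate numbers were taken from the sample labels. After trimming, the authors mapped paired reads to GRCm38 using STAR and deposited raw counts of uniquely assigned fragments per RefSeq gene (featureCounts 1.6.3 per the file headers), without strand or normalization, with the gene length in bases. Assignment summaries were deposited as counts too. Symbols were taken from the RefSeq gene table, which named 46029 of 46152 genes.

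As in the study's methods, a gene had to exceed 1 CPM in 3 or more libraries, TMM scaling was applied, and treatment was tested as the only term, here with edgeR's quasi-likelihood F test (edgeR 4.0.16, R 4.3.3). Calls required more than a 2-fold difference with unadjusted p under 0.05, beside Benjamini-Hochberg adjusted p over all genes tested. For single genes, log2 CPM was also put to an exact permutation test, two-sided (prior count 2, 252 ways to choose 5 of 10 libraries, smallest p 0.00794). Levels between genes were compared as TMM-scaled CPM per kilobase of deposited exon length. Profiles, promoter windows and figures were computed in Python 3.11.15 (numpy 2.4.6, pandas 2.3.3, scipy 1.17.1, biopython 1.88, matplotlib 3.10.9). The fit was tested on simulated counts.

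The genes, the pathway and marker lists and the alternatives were chosen with earlier results of these data known. Named genes are the 10 transducers, Csf1r, the called and the most abundant gene per role of the pathway list, and the gene nearest to each transducer in profile. Some genes that this rule names are not reported here singly. Pathway genes with an unadjusted p under 0.05, Inpp4a and the single marker genes were named after their values were seen. Alternatives were DESeq2 1.42.0, limma 3.58.1 (voom), the likelihood ratio test, other scalings, filters, prior counts and thresholds, covariates, a gene-length trend (loess span 0.5) and subsets of libraries. Each library was a separate mouse, so the tests measure the spread between mice. The lowest gene, Pik3cd, had 103 to 300 counts per library and a larger counting error than the rest.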

Additional observations from a re-analysis of the deposited data

Results flagged for a closer look

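In 6 of the 20 sets of 5 libraries (10 genes in 2 groups), 1 library lay further from the others than Dixon's 95% limit for 5 samples (a gap of 0.71 of the range) allows, where chance gives about 1 in 20. Of the 6, 5 were high values in Vehicle 5. Pik3cd was at 16.9 CPM there against 8.40 to 9.36 in the other vehicle libraries, and Pik3cg at 118 CPM against 30.3 to 46.6. Pik3ap1 was at 246 CPM against 80.8 to 99.1, Akt1 at 417 CPM against 112 to 131, and Inpp5d at 510 CPM against 243 to 310. The other was Lyn in GW2580 3, at 1086 CPM against 341 to 536 in the other treated libraries. The genes share their library, so the values in Vehicle 5 are not separate events.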

How the results depend on the processing

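The 5 against 5 design gave standard errors of 0.32 to 0.50 on the log2 scale for the 10 genes. The median log2 fold change of the 10 genes was between 0.42 and 0.96 in the 26 alternatives. The number called (1) was 4 with library size alone, without Vehicle 5 and GW2580 5 and without Vehicle 2 and 5, 3 with upper quartile factors, with the share on no exon and with the glial and neuronal marker mean as covariates, 2 with DESeq2, the likelihood ratio test, sex, the length trend removed or a 1.5-fold threshold, and 0 with limma-voom (2 at an unadjusted p under 0.05), in female mice only or at an adjusted p under 0.05. Leaving out each replicate gave 0 to 5, with 5 without Vehicle 5 and 0 without Vehicle 2 or GW2580 3. The number with an unadjusted p under 0.05 (2) was 6 with library size alone, upper quartile factors and without Vehicle 5 and GW2580 5, 7 with the share on no exon, 5 with the length trend removed, 4 with DESeq2 and without Vehicle 2 and 5, 1 with no filter, 0 in female mice only, and 1 to 6 leaving out each replicate. With the replicate block, 0 transducers were called and 1 had an unadjusted p under 0.05 (Plcg2), and 2554 of all genes were called. Same-numbered libraries did not deviate together (r from -0.57 to 0.39 over the 5 numbers, and 1 of 5 vehicle libraries correlated best with its own number), so they were taken to share only a number.

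Of the pathway genes (2 called), 5 were called with library size alone, 6 with the share on no exon, 1 with the marker mean, 19 without Vehicle 5 and GW2580 5, 8 without Vehicle 2 and 5, 0 in female mice only and 0 to 11 leaving out each replicate. Of all genes (3046), 4802 were called with no filter, 1730 with the share on no exon, 6057 without Vehicle 5 and GW2580 5, 794 in female mice only and 1684 to 4848 leaving out each replicate (lowest without GW2580 1, highest without GW2580 5). Pik3cd, near 0, turned negative with RLE factors (-0.027), no filter (-0.0093), DESeq2 (-0.027), limma-voom (-0.0019), the length trend removed (-0.033) and female mice (-0.025), and ranged from -0.21 to 0.25 leaving out each replicate. Grb2 ranged from -0.11 to 0.28 leaving out each replicate and was negative without GW2580 3. Dok2 ranged from -0.30 to 0.15 in the same way and turned positive with library size alone (0.045), the share on no exon (0.20), the marker mean (0.049), without Vehicle 5 (0.15), without Vehicle 5 and GW2580 5 (0.20) and without Vehicle 2 and 5 (0.22). The cause of these changes was not tested. The order of the levels was the same as TPM and with chromosomal exon lengths, the latter chosen after seeing the data.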
